A study of Mus musculus with 5 samples.

Results

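Wnt ligands were measured in sorted epithelial cells of the mouse trachea. The members are 10 genes, Wnt3a, Wnt4, Wnt5a, Wnt5b, Wnt7a, Wnt7b, Wnt9a, Wnt10a, Wnt11 and Wnt16, and every probe set of a genome-wide Affymetrix array that the platform annotation assigns to one of them alone. This gave 19 of the 45037 probe sets that are not controls, or 10 of 18193 genes. Basal cells gave 2 samples and duct cells gave 3, each from a pool of 10 to 15 C57BL/6 mice of both sexes, aged 8 to 12 weeks. Basal cells, labelled TROP-2+ITGA6+, were sorted from surface epithelium of the lower trachea after digestion with the enzyme dispase. Duct cells, labelled TROP-2+, were sorted from tissue of the upper trachea that remained once the enzyme pronase had removed the surface epithelium. Enzyme, tracheal section and sort gate therefore differed together with the cell type, and the mice carried no stated genetic change or treatment.

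Wnt proteins are secreted glycoproteins that carry a lipid group. The lipid is attached in the endoplasmic reticulum by the acyltransferase encoded by Porcn, and the carrier protein encoded by Wls takes the finished ligand to the cell surface. Ligands bind Frizzled receptors, either with the co-receptors Lrp5 and Lrp6, which stabilises β-catenin, or with receptors such as Ror2 in routes that do not need β-catenin and that act on cell polarity and movement. In the airway, Wnt signals between epithelium and mesenchyme shape lung budding, and in the adult trachea they act on basal cells and on the submucosal glands.

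Each array gave 1 linear intensity per probe set, in arbitrary units. The table has no detection calls, so each value was set against the brightest of 27 control probe sets for Bacillus transcripts on the same array, which measured 39.5 to 86.5. The number of arrays, 2 against 3, limits the precision. The median intensity was 92.3 on duct replicate 1 and 146.5 to 152.8 elsewhere. All 7 basal cell markers lay above the controls on all 5 arrays. Their summed intensities were 51680 to 53850 in basal and 75060 to 86400 in duct samples. Of the 7, 2 were called higher in duct cells and 0 lower. The 2 were Krt14, at 1327 and 1533 in basal and 18615, 18421 and 22413 in duct samples, and Krt17. Krt5 and Krt15 were also higher in duct samples without overlap, and Trp63, Ngfr and Dapl1 lower, none of them called. Of 8 fibroblast markers 3 lay above the controls on all arrays, and 0 of the 4 tested were called. Sums over the list were 3881 to 4978 in basal and 2312 to 4797 in duct samples. Dcn alone measured 3106 and 4090 in basal and 1520, 3123 and 2524 in duct samples, and Thy1 was above the controls on none. Vim was higher in duct samples without overlap, at 39.05 and 258 in basal and 503, 543 and 653 in duct samples (limma adjusted p = 0.173). Of 6 markers of smooth muscle and myoepithelium 1 lay above the controls on all arrays, and 0 of the 2 tested were called. Sums were 553.6 to 573.1 and 384.8 to 931, and Actg2 and Des were above the controls on none. The 2 tested went in opposite directions without overlap. Acta2 measured 119 and 142 in basal and 316, 429 and 459 in duct samples (limma adjusted p = 0.0751). Myh11 measured 357 and 289 in basal and 13.6, 80.7 and 30.7 in duct samples (limma adjusted p = 0.0806). Of 3 tested thyroid markers 1, Tg, was called higher in duct cells, with sums over the list of 224.7 to 247.9 in basal and 9162 to 20900 in duct samples, and all 6 squamous markers were called higher, with sums of 8511 to 10600 and 74040 to 94210. All 4 club cell markers lay above the controls on all arrays and 0 were called. Their sums were 80470 to 123600 in basal and 72390 to 88510 in duct samples. Of 7 leukocyte markers on the array 3 lay above the controls on all arrays, and 0 of the 4 tested were called. Sums over the 7 were 6080 to 17510 in basal and 13760 to 20700 in duct samples. Most of each sum was Lyz2, at 5374 and 16327 in basal and 19517, 12275 and 18187 in duct samples. Lyz2 and Ptprc overlapped between the groups. Cd68 and H2-Ab1 were higher in duct samples without overlap (limma adjusted p = 0.239 and 0.210). In the lists of chondrocyte, endothelium, ciliated and neuroendocrine markers 0 of those tested were called. The part of these cell types in the values of the ligands was not tested. These samples are bulk, so fewer cells of a type and less RNA per cell cannot be told apart.

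None of the Wnt ligands passed the test between duct and basal cells. Wnt4 lay far above the controls on all 5 arrays, and its difference between the groups was small. The widest differences among the tested ligands were those of Wnt9a and Wnt5a, with a lower mean in duct cells, and Wnt11, with a higher one. Wnt7a lay above the controls on 3 of the 5 arrays with its most intense probe set, and Wnt16 on 1. With limma, 0 of the 8 tested ligand genes were called at an adjusted p under 0.05, against 0.973% of all 12536 tested genes, and 2 of 8 had an unadjusted p under 0.05, against 18.5% of all. The groups did not overlap in 3 of the 8, against 39.1% of all tested genes, so both shares were near those of the whole table. The other 2 members, Wnt7a and Wnt16, were in the lowest 40% of probe sets by mean and were left out of the test. The median log2 fold change of the 8 was -0.24, against -0.12 for all tested genes. With each array centred on its median these values were -0.03 and 0.08, so that the sign of a small fold change depends on the scaling.

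**Figure D1:**
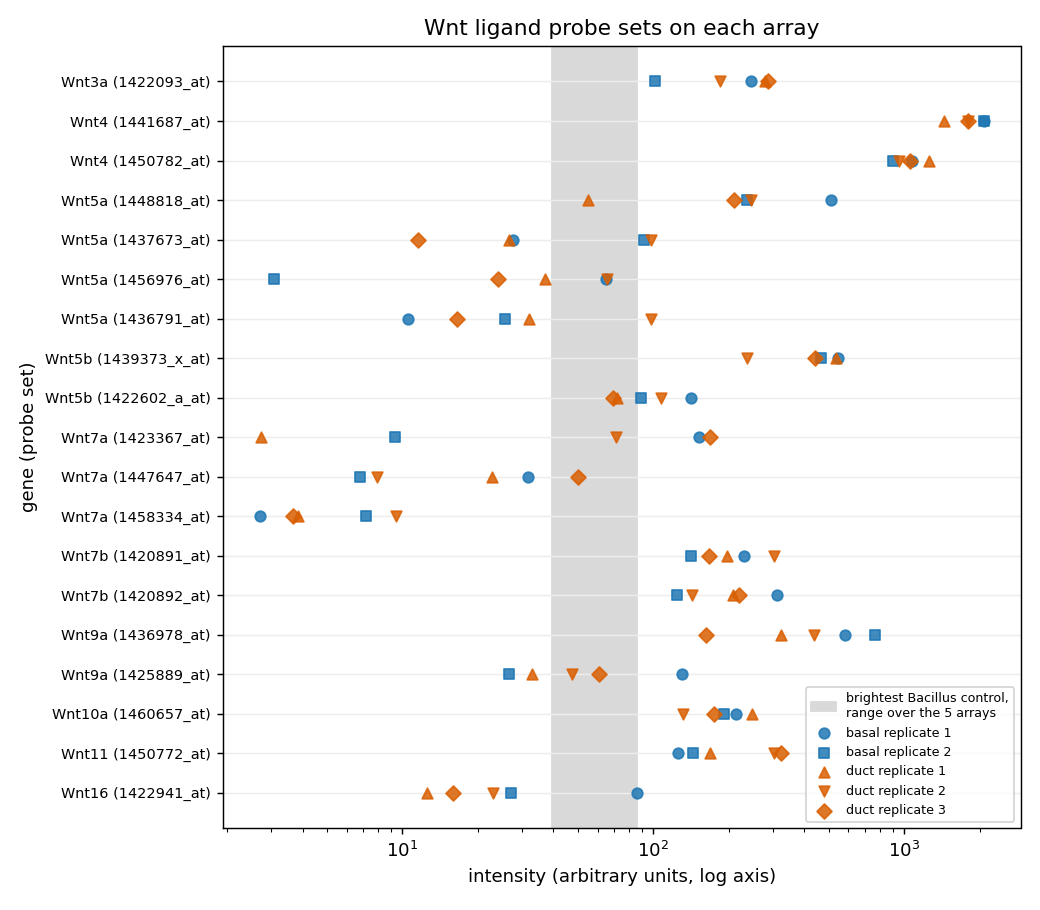
Intensity of each of the 19 Wnt ligand probe sets (vertical axis) on each array (horizontal axis, arbitrary units, log scale), with basal samples in blue and duct samples in orange. The grey band spans the brightest Bacillus control of the 5 arrays, 39.5 to 86.5. Both Wnt4 probe sets sit far to its right on every array, while all 3 Wnt7a probe sets, all 4 of Wnt5a, the dimmer ones of Wnt5b and Wnt9a, and Wnt16 have points in it or to its left.

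At the level of single probe sets, 11 of the 19 lay above the controls on all 5 arrays, 57.9% against 51.0% of all probe sets, and 2 lay above them on none, both of Wnt7a. In basal samples 15 and 12 of the 19 were above the controls, and in duct samples 11, 15 and 12. Of the 11 probe sets that were tested 0 were called, against 0.233% of all 27022, 1 had an unadjusted p under 0.05, against 14.9%, and the groups did not overlap in 3, against 35.6%.

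Wnt4, known for its role in kidney and female reproductive tract development, measured 2077 and 2087 in the basal samples and 1449, 1800 and 1792 in the duct samples on the probe set that stood for the gene. All 3 duct samples were below both basal samples, and the basal samples were nearly equal. The log2 fold change, duct minus basal on the scale of log2(intensity + 16), was -0.31 (SE 0.24, limma adjusted p = 0.533), with a 95% interval of -0.91 to 0.28. The second Wnt4 probe set measured 1079 and 907 in basal and 1257, 957 and 1051 in duct samples. There the groups overlapped and the fold change was 0.13 (interval -0.55 to 0.81), of the other sign. The intervals of Wnt4 and Wnt10a lay within 1 log2 unit, a 2-fold change, on both sides, and those of the other 6 tested ligands did not.

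Wnt9a, a ligand of joint formation in the limb, had the smallest p among the ligands. It measured 583 and 767 in basal and 322, 439 and 162 in duct samples, with means of 675 ± 131 (SD, n = 2) and 308 ± 139 (SD, n = 3). Each duct sample lay below both basal samples, and duct replicate 3 was the lowest. The log2 fold change was -1.19 (SE 0.44, unadjusted p = 0.0386, limma adjusted p = 0.241), with an interval of -2.28 to -0.09, and it was -0.80 without duct replicate 3. In a fit of all probe sets without a filter the interval was -2.38 to 0.0098 and included 0. The second Wnt9a probe set, too dim for the test, measured 130 and 26.7 in basal and 33.0, 47.6 and 60.7 in duct samples. On that probe set basal replicate 1 alone was above its controls, and the duct samples lay between the basal samples.

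Wnt11, which acts on cell movement in the embryo and on branching of the kidney, was the ligand with the largest positive fold change. It measured 125 and 144 in basal and 169, 304 and 322 in duct samples, all above the controls. The groups did not overlap, although duct replicate 1 lay closer to the basal samples than to the other duct samples. The means were 135 ± 13.3 (SD, n = 2) and 265 ± 83.8 (SD, n = 3), and the log2 fold change was 0.85 (SE 0.34, unadjusted p = 0.0494, limma adjusted p = 0.269; interval 0.0032 to 1.70). It was 1.13 without duct replicate 1, the array with the lower median intensity, and remained above 0 under the 16 alternatives in which it was tested. In the fit by probe set, the interval from the same values was -0.03 to 1.74 and included 0 (limma unadjusted p = 0.0565).

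**Figure D2:**
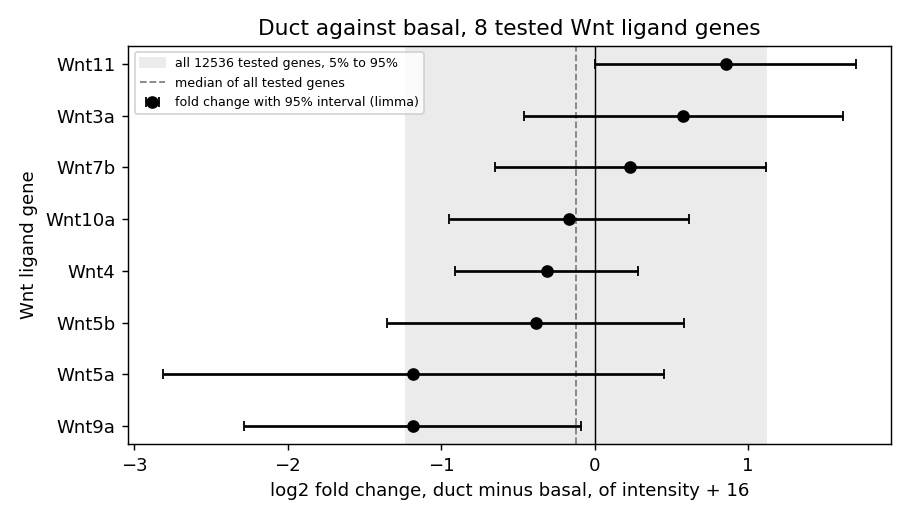
Log2 fold change (duct minus basal, horizontal axis) of the 8 tested Wnt ligand genes, as points with 95% intervals from limma; the grey area holds the middle 90% of all tested genes, from -1.23 to 1.11, and the dashed line is their median, -0.12. All 8 points lie inside the grey area, and in this fit by gene the intervals of Wnt9a and Wnt11 are the ones that do not include 0.

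Wnt5a and Wnt5b are close paralogs, and Wnt5a is the best known ligand of the routes that do not need β-catenin. Wnt5a measured 512 and 237 in basal and 54.75, 245 and 210 in duct samples. The groups overlapped, because basal replicate 2 lay below duct replicate 2, and the highest duct value was 4.48 times the lowest. The log2 fold change was -1.18 (SE 0.66, limma adjusted p = 0.397), with an interval of -2.81 to 0.45. Duct replicate 1 was the lowest array, and the fold change was -0.59 without it. The 3 other Wnt5a probe sets had intensities of 3.08 to 97.9 and were not tested. They lay above the controls on 2, 2 and 1 of the 5 arrays, and with the mean of all 4 probe sets the gene was at -0.09.

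Wnt5b measured 547 and 467 in basal and 537, 236 and 442 in duct samples. Duct replicate 2 stood below the rest, while duct replicate 1 was level with the basal samples. The log2 fold change was -0.38 (SE 0.39, limma adjusted p = 0.641; interval -1.35 to 0.58), and -0.05 without duct replicate 2. This probe set is of a kind that may bind transcripts of other genes too. The second Wnt5b probe set, which is not of that kind, measured 142 and 89.6 in basal and 71.6, 107 and 69.2 in duct samples. Its groups overlapped as well, with a log2 fold change of -0.41 (interval -1.22 to 0.41).

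Wnt3a, the ligand most used to activate β-catenin signalling in culture, measured 246 and 101 in basal and 280, 184 and 287 in duct samples. The basal samples lay further apart than the group means, and basal replicate 2 was the lowest of all arrays. The log2 fold change was 0.58 (SE 0.42, limma adjusted p = 0.512; interval -0.46 to 1.62). It was 1.16 without basal replicate 1 and -0.0018 without basal replicate 2, so the positive value rested on that sample.

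Wnt7b, a ligand of the developing lung epithelium, had 2 probe sets above the controls on all arrays. The first measured 230 and 142 in basal and 197, 302 and 167 in duct samples, a log2 fold change of 0.23 (SE 0.36, limma adjusted p = 0.768; interval -0.65 to 1.11). The second measured 310 and 124 in basal and 208, 142 and 219 in duct samples, a fold change of -0.07. In both, the basal samples enclosed most or all duct samples, and the probe sets differed in sign.

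Wnt7a, its paralog, which patterns the limb and the reproductive tract, measured 152 and 9.34 in basal and 2.73, 71.2 and 169 in duct samples on its most intense probe set. High and low arrays occurred in both groups, and 3 of the 5 arrays were above their controls. The other 2 Wnt7a probe sets, at 2.70 to 50.1, were above the controls on none.

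Wnt10a, a ligand of teeth, hair and other skin appendages, measured 214 and 192 in basal and 247, 132 and 175 in duct samples. The duct samples lay on both sides of the basal ones, with a log2 fold change of -0.17 (SE 0.32, limma adjusted p = 0.814; interval -0.95 to 0.62) that turned to 0.04 with each array centred on its median and to 0.03 without duct replicate 2.

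Wnt16, a ligand of bone and of stratified epithelium, measured 86.1 and 27.2 in basal and 12.5, 23.0 and 15.9 in duct samples. Basal replicate 1 alone was above its brightest control, at 59.7. The other 4 values were within the range of the controls and have no order, so the groups are not read as separate (limma adjusted p = 0.544 in the fit of all probe sets without a filter).

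**Figure D3:**
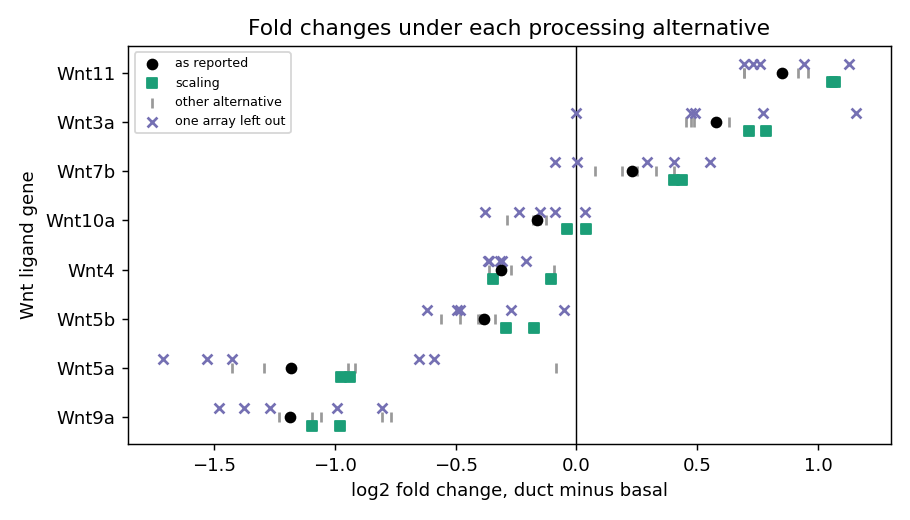
Log2 fold change (duct minus basal, horizontal axis) of each tested Wnt ligand gene as reported (black), under 2 other scalings (green), with 1 array left out (purple crosses) and under the other alternatives (grey bars). Wnt9a stays between -1.48 and -0.77 and Wnt11 between 0.69 and 1.13, while Wnt3a, Wnt7b and Wnt10a reach or cross 0.

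Where a gene had several probe sets, their intensities were also summed per array and compared with an exact permutation test over the 5 samples, 2-sided, for all 10 ligands. With 10 arrangements of 2 against 3 samples the smallest p this design allows is 0.1, so none could pass. Wnt4, whose sums were 3156 and 2994 in basal and 2706, 2757 and 2844 in duct samples, and Wnt16 reached it (exact p = 0.1, 0.5 after adjustment over the 10 ligands). For Wnt16 this p rests on the order of values within the range of the controls and is not read as a difference. The exact p was 0.2 for Wnt9a and Wnt11, 0.3 for Wnt3a and 0.4 to 0.8 for the other 5.

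The other 9 Wnt ligand genes of the mouse had 13 probe sets, and 0 of them lay above the controls on all 5 arrays. All were too dim for the test. The most intense by mean were those of Wnt9b, at 85.4 and 122 in basal and 95.2, 20.4 and 135 in duct samples, and Wnt8b, at 8.78 and 64.8 in basal and 202, 191 and 47.4 in duct samples. In both genes high and low values occurred in duct samples. Wnt6, an epithelial ligand chosen after its values were seen, was above the controls on all 3 duct arrays and on neither basal array with each of its 2 probe sets. One measured 11.8 and 20.0 in basal and 104, 56.7 and 119 in duct samples. The other measured 7.47 and 62.4 in basal and 45.8, 122 and 107 in duct samples. Set against the brightest controls of the basal arrays, the duct means were 1.20-fold and 1.15-fold higher, and that of Wnt8b 1.61-fold. These ratios of group means do not bound the difference of single samples. The Wnt6 groups did not overlap on the first probe set and overlapped on the second. Neither was called in a fit of all probe sets without a filter (limma adjusted p = 0.294 and 0.594). The interval of the second in that fit, -0.34 to 2.82, included 0.

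Genes that secrete, receive and transmit Wnt signals were counted from lists, beside which 0.973% of all 12536 tested genes were called. Of 11 tested genes of secretion and release 0 were called higher and 1 lower in duct cells. Their median log2 fold change was 0.11. The one called lower was Porcn, at 4405 and 5148 in basal and 807, 803 and 564 in duct samples. Its log2 fold change was -2.71 (SE 0.28, limma adjusted p = 0.0225). Every duct sample was far below both basal samples. Without any one array the fold change ran from -2.82 to -2.54 but was not called (adjusted p 0.0587 to 0.170). It was not called without the filter on low values either (adjusted p = 0.0644). Wls, which the naming rule does not pick, measured 3285 and 3651 in basal and 2304, 2252 and 2259 in duct samples, with no overlap and a log2 fold change of -0.61 (limma adjusted p = 0.238). Its value was -0.43 with the mean of its probe sets. Gpc3, of the same list and also outside the rule, went the other way. It measured 1614 and 1349 in basal and 3258, 3632 and 3490 in duct samples. The log2 fold change of Gpc3 was 1.22 (limma adjusted p = 0.0828). Of the 11 genes 6 had a positive and 5 a negative fold change. The groups did not overlap in 5, with 2 higher and 3 lower in duct samples, against 39.1% of all tested genes.

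Among 14 tested receptor genes 0 were called, with a median of -0.08. Lrp6, a co-receptor, measured 2735 and 2402 in basal and 1557, 1782 and 1508 in duct samples (log2 fold change -0.66, limma adjusted p = 0.226), and Fzd5, a Frizzled receptor, was at 0.15 (adjusted p = 0.782). Of 9 tested secreted or membrane antagonists 0 were called, with a median of -0.03. Apcdd1, a membrane inhibitor, was at -0.32 and Kremen1, a Dickkopf receptor, at -0.40. The R-spondin axis amplifies Wnt signals at the membrane. Of its 6 tested genes 0 were called higher and 1 lower, against 0.973% of all tested genes called. The one called lower was the R-spondin receptor gene Lgr6, at 6302 and 5468 in basal and 1191, 1646 and 996 in duct samples. Lgr6 had a log2 fold change of -2.22 (SE 0.30, limma adjusted p = 0.0427). Its call was lost without any one array (adjusted p 0.0861 to 0.260), without the filter (0.105) and with a pseudocount of 1 (0.0577), at fold changes of -2.41 to -2.06.

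Of 14 tested transducers 0 were called, with a median of -0.20. Ctnnb1, the β-catenin gene, measured 20900 and 21523 in basal and 19970, 18804 and 22145 in duct samples, with overlap and a log2 fold change of -0.07. Csnk1a1, a kinase of the complex that marks β-catenin for destruction, was at 0.49 (limma adjusted p = 0.346). Of 11 tested targets and feedback genes 0 were called, with a median of 0.03. Cd44 was at 0.03 and Ccnd1, the cyclin D1 gene, at 0.29 (adjusted p = 0.535). Tnfrsf19, a receptor gene picked with its values in view, measured 860 and 935 in basal and 304, 303 and 290 in duct samples. The groups did not overlap, and the log2 fold change of -1.54 (SE 0.22) just missed the threshold (limma adjusted p = 0.0509). It was called with a pseudocount of 64 (adjusted p = 0.0335), with the lowest 60% of probe sets excluded (0.0187), with an intensity trend and robust prior (0.0144) and with array weights (0.0433), and its adjusted p under the other alternatives ran up to 0.320. Myc, a growth regulator likewise picked once its values were known, measured 2355 and 2056 in basal and 4709, 4389 and 5251 in duct samples, a log2 fold change of 1.11 (limma adjusted p = 0.0983). Axin2, the feedback gene most often read as a sign of β-catenin signalling and likewise picked with its values in view, measured 146 and 78.5 in basal and 78.7, 408 and 115 in duct samples. Duct replicate 2 stood above the rest, and the log2 fold change was 0.49 (SE 0.68, limma adjusted p = 0.740). Of 8 tested planar polarity genes, which serve the routes without β-catenin, 0 were called, with a median of 0.05. Celsr2, a polarity cadherin, was at 0.30 and Daam1, an effector of Dishevelled, at 0.56.

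**Figure D4:**
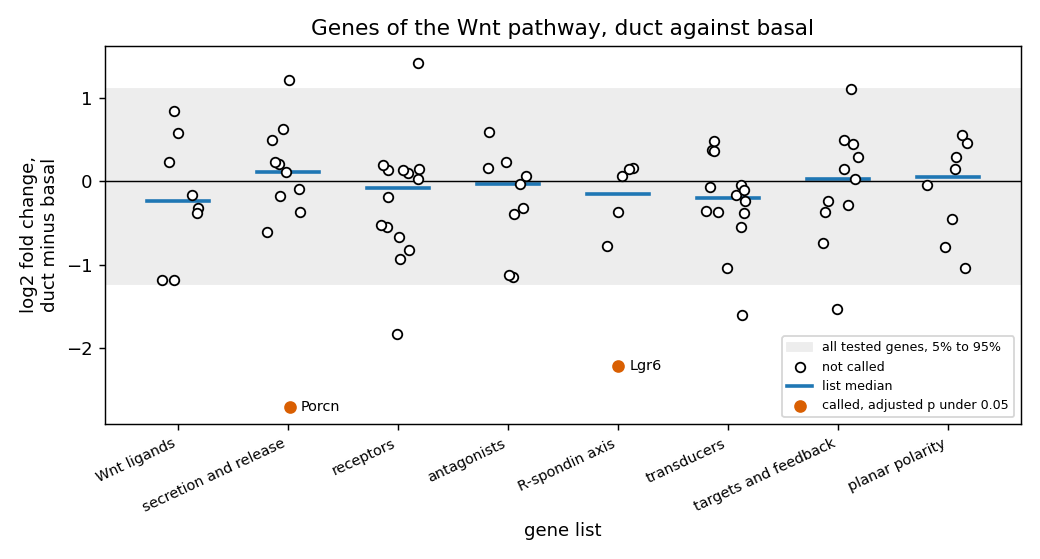
Log2 fold change (duct minus basal, vertical axis) of every tested gene of the Wnt pathway lists (horizontal axis), with open points for genes not called, filled points for those called and a blue bar at each list's median. The list medians lie between -0.24 and 0.11, and the 2 called genes, Porcn at -2.71 and Lgr6 at -2.22, lie below the grey area that holds the middle 90% of all tested genes.

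For 2 ligands the genes with the most similar pattern over the 5 arrays were sought by the root mean square difference of log2 values after each gene was centred on its mean. Wnt9a, with the smallest p, was closest to Prkd1, a protein kinase D gene, at a difference of 0.05 against a median of 0.80 over all tested genes. Aqp4, a water channel gene, and Dennd2d followed at 0.10 each. Wnt4 was closest to Extl3 at 0.03, against a median of 0.42, then to Tgm2 and Tap2 at 0.04 each. Since they were chosen for their likeness to these ligands, their lower values in duct samples follow from the choice; 0 of the 6 were called.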

How the data were processed

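RNA of 5 sorted samples was labelled with biotin and hybridised to Affymetrix arrays, per the labels. The table deposited holds a linear intensity for every probe set, which the authors scaled so that each array's mean without the lowest and highest 2% is 500; for the summary and background methods, nothing is given in the sources used here. Columns of other samples numbered 0. Of 45101 probe sets, 64 controls were left out, 34945 had 1 gene symbol, 932 several and 9160 none listed. Symbols checked by Entrez identifier against GRCm38.p6 needed 0 updates. The most intense probe set by mean log2 value stood for each gene, and the lowest 40% of probe sets were left out. Differences of log2(intensity + 16), which understate the change of dim genes, were tested on all 5 arrays with lmFit and eBayes of limma 3.58.1 (R 4.3.3, statmod 1.5.0), 2-sided, with Benjamini-Hochberg adjustment over all genes, or all probe sets, tested; a call is an adjusted p under 0.05. Intervals are 95% and moderated, and come from the fit by gene, or for second probe sets from the fit by probe set, unless stated. The fit was tested on simulated data.

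Means and SDs are of linear intensities. A ratio to the controls sets a group's mean log2 value against the mean of the brightest controls of the other group. The members, gene lists and tests were chosen with earlier results of these data known. All 10 ligands are described; from each list up to 4 called genes, or else the 2 most intense, were named, of the other Wnt ligands the 2 most intense, and for 2 ligands the 3 most similar genes. Wls, Gpc3, Wnt6, Tnfrsf19, Myc and Axin2 fall outside this rule and were picked with their values in view. The secretion list holds Hhat, which acts on Hedgehog proteins. Replicate numbers were not used as pairs. The sample descriptions used here give pool sizes, and whether a basal and a duct pool shared mice is not known from them. Any 2 arrays had at most 1 equal value, so no array was a copy of another. Protein sequences were not used here. Figures were drawn with matplotlib 3.10.9.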

Additional observations from a re-analysis of the deposited data

How the results depend on the processing

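The number of Wnt ligand genes called was 0 under all 17 alternatives, and that of Wnt ligand probe sets 0 under the 15 that apply to probe sets. The smallest adjusted p of a ligand over these was 0.120, that of Wnt11 with quantile normalization. In the fits by gene, Wnt4, Wnt5a, Wnt5b, Wnt9a and Wnt11 kept their direction under each alternative in which they were tested; by probe set, the second one of Wnt4 was at 0.13. Without one array, Wnt3a ran from -0.0018 to 1.16, Wnt7b from -0.091 to 0.55 and Wnt10a from -0.38 to 0.035; Wnt10a was also at 0.041 with arrays centred on their medians. Wnt10a and Wnt11 were not tested under the filter at 60%.

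Calls over all genes, 105 higher and 17 lower, moved more. They were 281 and 57 with median centring, 208 and 95 with a pseudocount of 64, 35 and 1 without the filter, 250 and 158 with the lowest 60% left out, and 565 and 377 with an intensity trend and robust prior. The number lower was 28 with quantile normalization, 49 with the mean of probe sets and 40 with array weights. Without one array the number higher ran from 0 to 46 and the number lower from 0 to 2; where this leaves 1 basal sample, its spread is taken to be that of the duct samples. Fewer samples or fewer genes tested are part of these settings, and the cause was otherwise not tested. With the replicate number as a block, 0 genes were called in either direction, 0 ligand genes and 0 ligand probe sets among them. Wnt9a was at -0.80 and Wnt11 at 0.69, the same values as without duct replicate 3, which has no basal partner. The block takes 2 of the 3 residual degrees of freedom, so the absence of calls in this fit says little. Deviations of samples with the same number correlated at -0.08 and -0.04 across genes. Both values rest on the same difference between the 2 basal samples, so they cannot show whether pools shared mice. The numbers are not read as pairs. Signal near the controls limits Wnt7a, Wnt16 and the dim probe sets of Wnt5a and Wnt9a. Single values of tested probe sets came close to the controls too. On basal replicate 2, whose brightest control was 86.5, Wnt3a measured 101 and the second Wnt5b probe set 89.6. On duct replicate 1, whose brightest control was 39.5, the tested Wnt5a probe set measured 54.75.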
